A study of Homo sapiens with 8 samples.

Results

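MicroRNA and snoRNA host genes are genes, most of them long noncoding, whose transcripts carry smaller RNAs. They were taken from the table of HepG2 cells by symbol alone, as genes named MIR followed by any letters or digits and ending in HG, genes named SNHG followed by a number, and GAS5. This gave 68 of the 25603 genes in the table, comprising 43 microRNA hosts and 25 snoRNA hosts, the latter including GAS5. The names chose the members, and the rule was set with earlier results of these data known.

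HepG2 is an established cell line from a human hepatocellular carcinoma, and all libraries came from this line. In 1 group the cells received the EZH1/2 inhibitors UNC1999 and valemetostat tosylate together, each at 1 µM, for 4 days (EZHi). In the other group they received the solvent DMSO at 0.2% over the same time (vehicle). Each group held 4 mRNA libraries of whole cultures, read in pairs of 150 bp. The study describes the replicates as biologically independent. The hepatocyte genes ALB and AFP were at an estimated FPKM of 10106 and 16199, the endothelial gene PECAM1 was at 1.63, and PTPRC, a blood cell gene, had no row. Of the fibroblast genes, COL1A2 had no row, COL1A1 was at 2.80 and PDGFRA was at 0.233, and PDGFRA was the only one of these marker genes to be called, with a log2 fold change of 0.92 (adjusted p = 0.0050). Its part in the results was not tested. EZH1 and EZH2, whose proteins the compounds inhibit, had log2 fold changes of -0.07 (adjusted p = 0.573) and -0.06 (adjusted p = 0.806) in limma, so their mRNA is no check of the treatment.

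Host transcripts have a double role. A microRNA is cut out of a hairpin in the primary transcript by DROSHA and DGCR8, exported by XPO5, trimmed by DICER1 and loaded onto an Argonaute protein, where bases 2 to 8, the seed, pair with target mRNAs. Most vertebrate snoRNAs lie in introns and are released from the spliced intron, after which C/D box snoRNAs guide 2′-O-methylation and H/ACA box snoRNAs guide pseudouridylation of ribosomal RNA, while the spliced host RNA is in several cases removed by nonsense-mediated decay. EZH1 and EZH2 are the methyltransferases of polycomb repressive complex 2, which marks lysine 27 of histone H3 at silenced genes. The libraries measured the long, polyadenylated host RNA and not the mature small RNA.

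According to GENCODE release 44 (GRCh38), 42 of the 43 microRNA hosts span at least 1 microRNA gene on their own strand, 65 in all, and 20 of the 25 snoRNA hosts span a snoRNA gene, 130 in all. MIR30DHG was not found in that release. SNHG14, the long imprinted transcript of chromosome 15, alone spans 83 of the 138 snoRNA records that RefSeq places inside snoRNA hosts, whereas GAS5 spans 11 and SNHG1 spans 9. RefSeq places none inside SNHG10, SNHG20, SNHG21 and SNHG22. SNHG20 spans MIR6516 in GENCODE. The snoRNA counts covered genes of type snoRNA only. On their own strand, SNHG10, SNHG20 and SNHG22 share exon bases with SCARNA13, SCARNA16 and SCARNA17, which were not counted.

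The mature microRNAs of the 4 hosts that rose on EZHi treatment are shown first, because these are the small RNAs that those transcripts could give. Sequences are from RefSeq (GRCh38.p14), 5′ to 3′, and capitals mark the seed.
miR-1915-3p, chr10:21496576-21496595, minus strand: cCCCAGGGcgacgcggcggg
miR-1915-5p, chr10:21496609-21496630, minus strand: aCCUUGCCuugcugcccgggcc
miR-3142, chr5:160474492-160474513, plus strand: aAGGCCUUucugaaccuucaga
miR-146a-5p, chr5:160485372-160485393, plus strand: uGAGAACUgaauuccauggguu
miR-146a-3p, chr5:160485408-160485429, plus strand: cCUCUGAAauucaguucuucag
miR-600, chr9:123111561-123111583, minus strand: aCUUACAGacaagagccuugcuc
miR-4527, chr18:47380503-47380524, plus strand: uGGUCUGCaaagagaugacugu
The miR-3142 and both miR-146a strands belong to MIR3142HG, and the others to the host of the same number. The RefSeq position of miR-3142 lies beyond the end of the MIR3142 gene in GENCODE, chr5:160474402-160474483. The 7 seeds all differ from each other.

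MIR17HG carries the miR-17 cluster, 6 hairpins in a row known for promoting proliferation, and its members fall into groups of equal seed. The main strands are shown because MIR17HG had the second largest change among microRNA hosts. Those of the first seed group differ from miR-18a-5p within the seed.
miR-17-5p, chr13:91350618-91350640, plus strand: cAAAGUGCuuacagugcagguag
miR-20a-5p, chr13:91351072-91351094, plus strand: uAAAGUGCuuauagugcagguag
miR-18a-5p, chr13:91350756-91350778, plus strand: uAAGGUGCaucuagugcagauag
miR-19a-3p, chr13:91350939-91350961, plus strand: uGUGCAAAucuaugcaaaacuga
miR-19b-3p, chr13:91351245-91351267, plus strand: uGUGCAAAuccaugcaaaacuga
miR-92a-3p, chr13:91351361-91351382, plus strand: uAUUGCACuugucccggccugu
Of 65 microRNA genes of members looked up in the RefSeq table, 63 had mature sequences, 109 in all with 88 distinct seeds. MIR6516 of SNHG20 was among the 65, and MIR3150B of MIR3150BHG was not looked up. The seed shared by most hosts was that of the let-7 family, GAGGUAG, found in 8 mature microRNAs of 5 hosts, namely MIR100HG, MIR4458HG, MIRLET7A1HG, MIRLET7BHG and MIRLET7IHG.

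For the snoRNA hosts that changed, some of the snoRNAs they span are shown from the genome (GRCh38), with box C (TGATGA) and box D (CTGA) or the ACA box in capitals where these letters were found near the ends.
SNORD60 in SNHG19, chr16:2155023-2155105, minus strand: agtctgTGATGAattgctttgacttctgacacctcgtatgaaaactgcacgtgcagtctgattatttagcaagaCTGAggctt
SNORA17A in SNHG7, chr9:136726747-136726879, minus strand: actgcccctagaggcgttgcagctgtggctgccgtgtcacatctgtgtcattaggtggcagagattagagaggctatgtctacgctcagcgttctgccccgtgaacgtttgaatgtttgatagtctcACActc
SNORD99 in SNHG12, chr1:28578749-28578822, minus strand: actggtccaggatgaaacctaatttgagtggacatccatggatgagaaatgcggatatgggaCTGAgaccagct
SNORA61 in SNHG12, chr1:28579764-28579893, minus strand: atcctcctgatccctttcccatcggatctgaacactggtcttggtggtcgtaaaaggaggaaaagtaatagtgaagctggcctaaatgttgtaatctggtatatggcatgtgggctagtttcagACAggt
SNHG12 also spans SNORA44 and SNORA16A.

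The level of the hosts is given as an estimated FPKM, and a change as the difference of length-corrected log2 values, EZHi minus vehicle, with the standard error of limma. The test covered genes that averaged 0.1 or more on the FPKM scale, and a gene was called when its adjusted p over the 20153 genes tested was under 0.05. Of the members, 54 were tested, 30 microRNA hosts and 24 snoRNA hosts. The 14 others were MIR100HG, MIR1302-2HG, MIR1302-9HG, MIR155HG, MIR181A1HG, MIR202HG, MIR23AHG, MIR3150BHG, MIR3976HG, MIR4280HG, MIR503HG, MIR583HG, MIR9-3HG and SNHG15, all at or below 0.0921 in vehicle. Values of MIR181A1HG and MIR3976HG varied by less than 0.02 over the 8 libraries, so they carry no information on the treatment. MIR100HG and MIR202HG had EZHi values that were all above the vehicle values and would be called if no filter on low levels were used, but their vehicle values were flat, with SDs of 0.0030 and 0.0012.

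The classes differed in level. In vehicle, the tested microRNA hosts had a median estimated FPKM of 1.02 and reached 18.6, whereas the tested snoRNA hosts had a median of 18.2 and reached 174. Of the microRNA hosts 2 were at 10 or more on average over the 8 libraries, against 13 of the snoRNA hosts. Since mRNA was selected, these levels are those of the polyadenylated host RNA.

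On EZHi treatment 8 of the 54 hosts were called, MIR600HG, MIR3142HG, MIR1915HG, MIR4527HG, SNHG20, SNHG19 and SNHG7 as higher and SNHG12 as lower. That is 7 higher and 1 lower, where 8.85% of all genes tested were called higher and 4.27% lower. Among the 4390 tested long noncoding genes, 4.74% were called higher and 1.07% lower. All 8 changes were below 2-fold, with log2 fold changes from -0.31 to 0.56. By class, 4 of 30 microRNA hosts rose and 0 fell, and 3 of 24 snoRNA hosts rose and 1 fell. At an unadjusted p under 0.05, limma found 6 microRNA hosts higher and 0 lower and 7 snoRNA hosts higher and 1 lower, where 14.7% of all genes were higher and 12.0% lower. In these bulk libraries, a change of RNA per cell and a change in the share of cells that express a gene cannot be told apart.

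Libraries of equal replicate number deviated together in the groups, and with the replicate number as a block 11 hosts were called higher and 2 lower. The background rose more, to 14.9% of all genes higher and 15.1% lower. MIR17HG, SNHG8, SNHG16 and SNHG26 were added as higher and MIR4435-2HG as lower. The 8 hosts called without the block were called with it too. With 1 library left out, fewer hosts passed the threshold, while their changes kept their direction. Over the 8 omissions the log2 fold change ran from 0.43 to 0.58 for MIR1915HG, from 0.35 to 0.48 for SNHG20, from 0.31 to 0.46 for SNHG19 and from -0.37 to -0.27 for SNHG12. Without EZHi replicate 4, limma called 0 of the 54 hosts, while 7.06% of all genes were called higher and 1.93% lower. At an unadjusted p under 0.05, 11 hosts were then higher and 1 lower, beside 12.9% and 9.29% of all genes. Of the 8 hosts called with all libraries, 2 stayed called without vehicle replicate 1 and 2 without vehicle replicate 4, 3 without vehicle replicate 3, and 4 in each of the other omissions. MIR1915HG was called in 5 of the 8 omissions, SNHG20 in 4, MIR600HG, MIR3142HG and SNHG19 in 3 each, SNHG7 and SNHG12 in 2 each, and MIR4527HG in 1.

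Quantile normalization ended the call of 5 of these hosts. The log2 fold change was then 0.34 for MIR600HG (adjusted p = 0.145), 0.34 for MIR3142HG (adjusted p = 0.104), 0.36 for SNHG20 (adjusted p = 0.0550), 0.10 for MIR4527HG (adjusted p = 0.323) and -0.25 for SNHG12 (adjusted p = 0.109). MIR1915HG, SNHG19 and SNHG7 kept their call, and SNHG8 and SNHG16 gained one. Of all genes, 6.93% were then called higher and 3.89% lower.

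**Figure D1:**
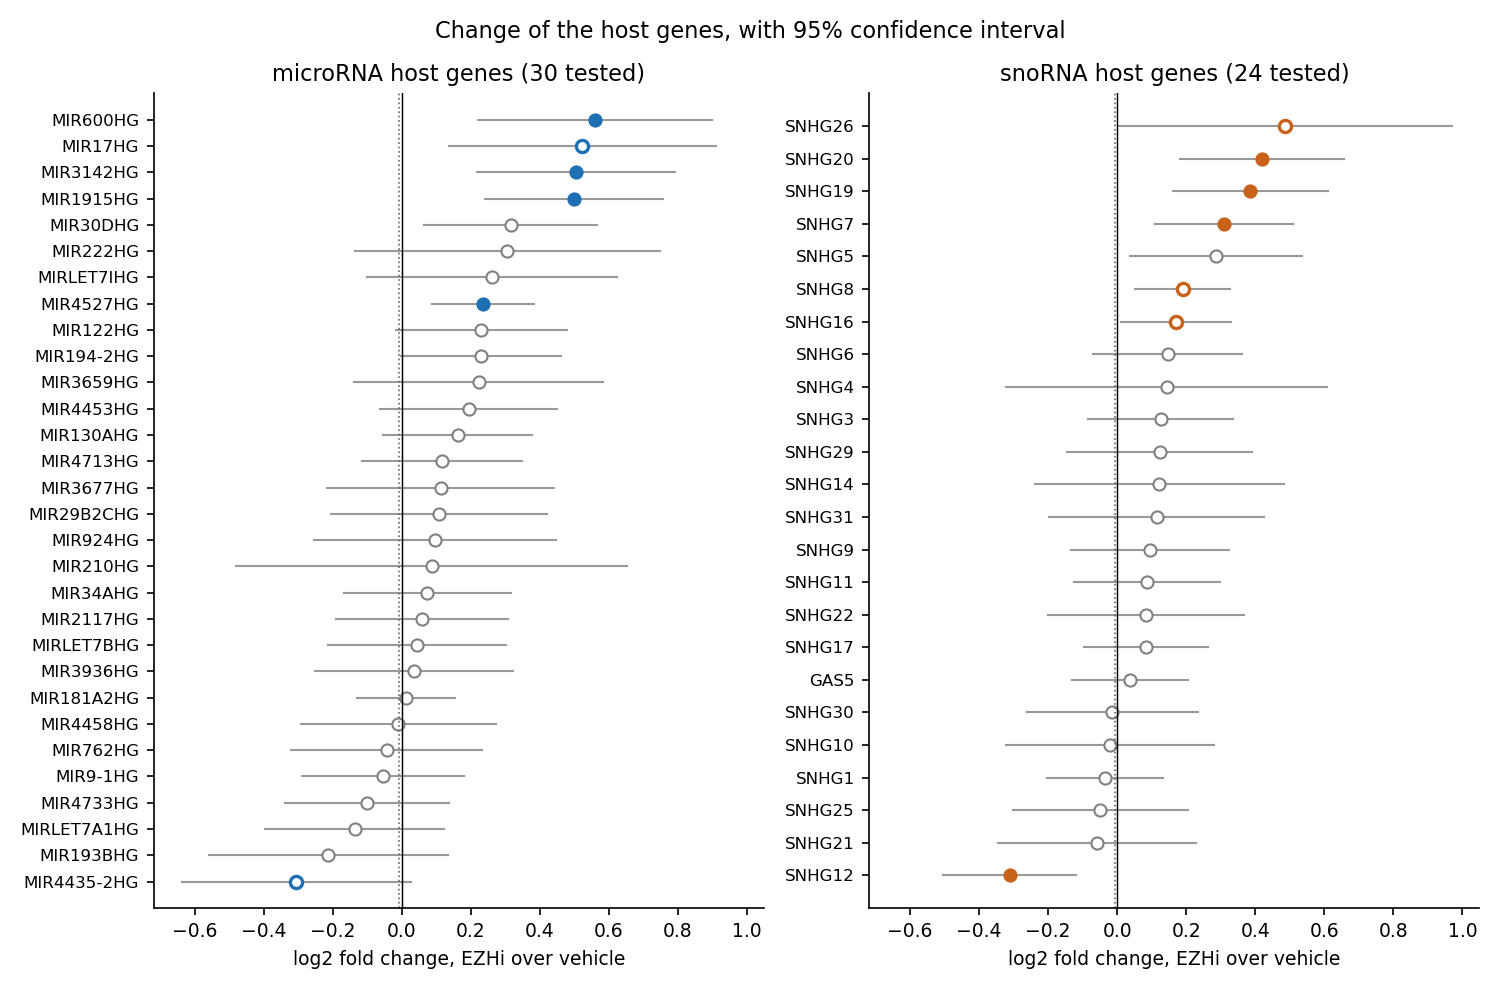
Log2 fold change (EZHi over vehicle) of each tested microRNA host (left, 30 genes) and snoRNA host (right, 24 genes), with the 95% confidence interval of limma as a grey line. Filled points were called, coloured open points were called with the replicate block but not without it, grey open points were called in neither, and the dotted line is the median of all genes. Most points lie right of 0 in both classes, and SNHG12 is the only filled point left of it.

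Among microRNA hosts, MIR600HG, the host of miR-600, had the largest change. Its log2 values in vehicle were 4.67, 4.90, 4.63 and 4.73 for replicates 1 to 4, and in EZHi 5.09, 5.00, 5.44 and 5.63. All EZHi libraries were above all vehicle libraries, and replicate 2 showed the smallest difference, 0.10. This gave a log2 fold change of 0.56 (SE 0.15, adjusted p = 0.0381), from an estimated FPKM of 1.04 to 1.55. Of its exon bases 5.88% are shared with other genes, among them STRBP on the same strand. MIR600HG lies at chr9:123109494-123115477 on the minus strand.

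MIR3142HG contains miR-146a, which is known to restrain NF-κB signalling through the adaptors IRAK1 and TRAF6. It is at chr5:160438594-160487426, and MIR146A lies in one of its exons. In vehicle, log2 values of 5.34, 5.61, 5.77 and 5.71 were found, and in EZHi 5.98, 5.96, 6.28 and 6.23. The groups did not overlap, and all same-number differences were positive, from 0.35 to 0.64. The log2 fold change was 0.51 (SE 0.13, adjusted p = 0.0284), with estimated FPKM values of 1.92 and 2.72.

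MIR1915HG, at chr10:21490272-21497260 on the minus strand, shares no exon bases with another gene. On the log2 scale it was at 7.43, 6.98, 7.15 and 7.20 in vehicle and at 7.76, 7.46, 7.75 and 7.78 in EZHi. The groups came close, since EZHi replicate 2 was only just above vehicle replicate 1, but they did not overlap. EZHi minus vehicle was 0.50 on the log2 scale (SE 0.12, adjusted p = 0.0190), from an estimated FPKM of 5.74 to 8.09. The MIR1915 hairpin inside it has a row of its own in the table, with a log2 fold change of 0.12 (SE 0.12, adjusted p = 0.563). An 80-base hairpin in mRNA libraries of 150 bp reads does not measure the mature microRNA.

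MIR4527HG was called at the lower edge of the levels tested. All 4 vehicle libraries were at 1.39 (SD 0.0019), and the EZHi libraries were at 1.61, 1.54, 1.55 and 1.79. It was the only tested host whose SD within a group was under 0.01, and vehicle values this flat carry little information on its level. A log2 fold change of 0.23 resulted (SE 0.07, adjusted p = 0.0445), at an estimated FPKM of 0.102 in vehicle and 0.120 in EZHi. The call was lost with a pseudocount of 0.5, where the change was 0.043 (adjusted p = 0.113), with a pseudocount of 1, where it was 0.024 (adjusted p = 0.146), and when low genes were not filtered out (adjusted p = 0.0529).

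MIR17HG gave log2 values of 5.02, 4.84, 4.31 and 4.45 in vehicle, and 5.46, 5.09, 5.06 and 5.11 in EZHi. The lowest EZHi library was above the highest vehicle library, and vehicle libraries spread more than EZHi libraries. The log2 fold change of 0.52 (SE 0.17) had an adjusted p of 0.0795, and 0.0091 with the replicate block. Of its exon bases 24.1% are shared with other genes, the 6 microRNA genes of the cluster and an antisense gene among them.

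MIR4435-2HG, a long transcript of chromosome 2, was the microRNA host of highest level, with an estimated FPKM of 18.6 in vehicle and 15.1 in EZHi. Its log2 values were 8.89, 9.14, 8.60 and 8.90 in vehicle and 8.62, 8.89, 8.24 and 8.57 in EZHi. The groups overlapped, whereas each EZHi library was below the vehicle library of equal number, by 0.25 to 0.37. The log2 fold change was -0.31 (SE 0.15), with an adjusted p of 0.227, and of 0.0023 with the replicate block.

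The other microRNA hosts of high level or large difference were not called. MIR34AHG, host of the p53 target miR-34a, had a log2 fold change of 0.07 (SE 0.11, adjusted p = 0.730) at an estimated FPKM of 14.4 in vehicle. MIR193BHG, host of miR-193b and miR-365a, had -0.21 (SE 0.15, adjusted p = 0.435), with values of 6.72 in replicate 3 of both groups. MIR924HG had 0.10 (SE 0.16, adjusted p = 0.761), and MIR30DHG had 0.32 (SE 0.11, adjusted p = 0.101).

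A pair of hosts of microRNAs that are abundant in liver had low levels, and are named here after their values were seen. MIR122HG, host of the hepatocyte microRNA miR-122, was at an estimated FPKM of 0.113 in vehicle and 0.134 in EZHi, with a log2 fold change of 0.23 (SE 0.11, adjusted p = 0.221). MIR194-2HG, host of miR-192 and miR-194, was at 0.417 and 0.489, with a log2 fold change of 0.23 (SE 0.10, adjusted p = 0.192). Both showed overlapping groups.

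**Figure D2:**
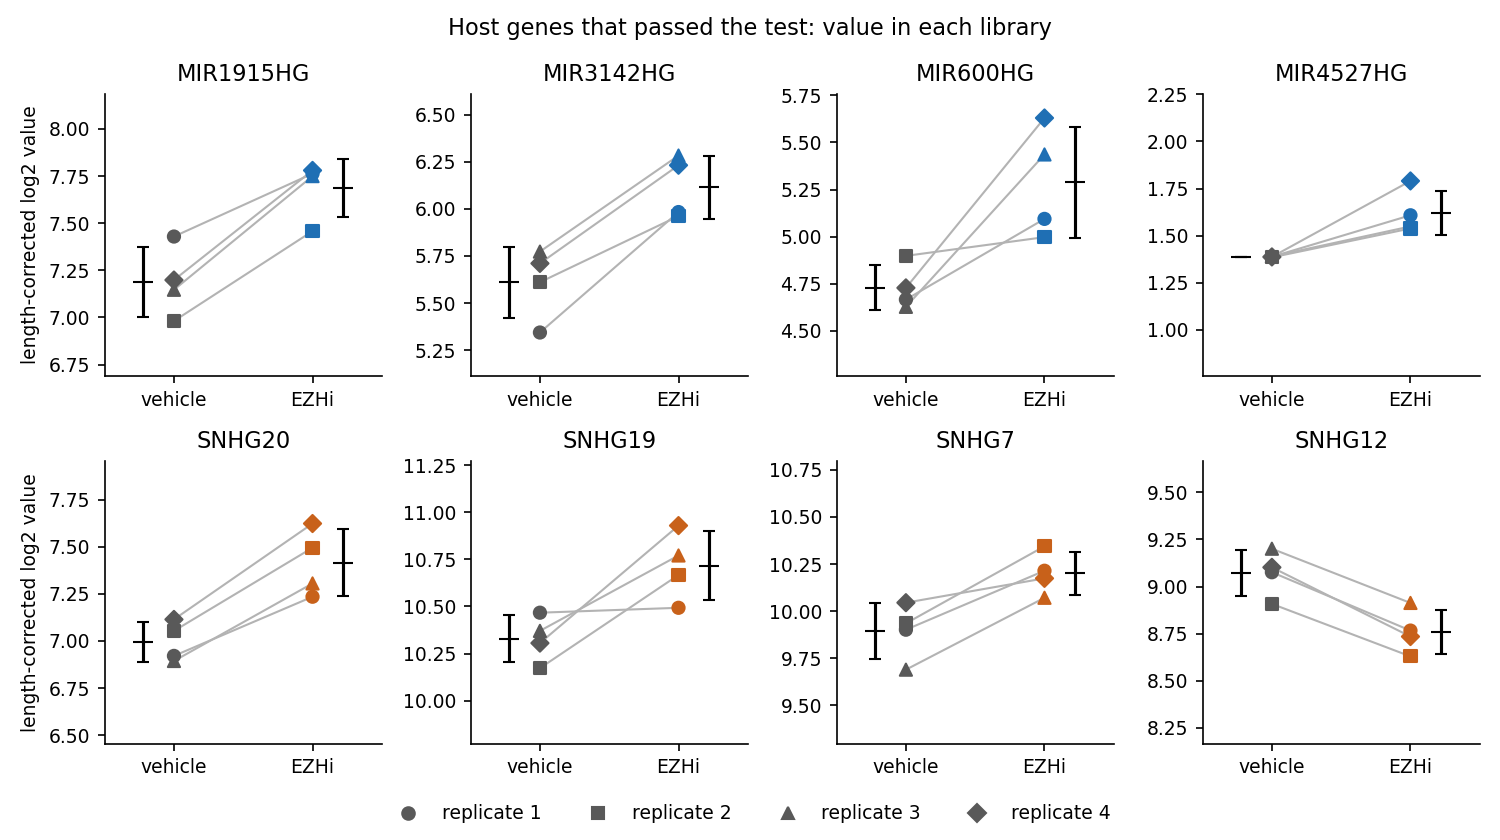
Length-corrected log2 value (vertical axis) of the 8 called hosts in each vehicle and EZHi library. Symbols mark the replicate number, grey lines join equal numbers, and black bars show the mean and SD of 4 libraries. All panels span the same range of log2 units; the EZHi libraries lie above the vehicle libraries in 7 panels, and SNHG12 shows the opposite order, with slightly overlapping groups.

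Among snoRNA hosts, SNHG20 had the largest change of those called. It lies at chr17:77086716-77099902 on the plus strand. Its log2 values were 6.92, 7.05, 6.89 and 7.11 in vehicle and 7.23, 7.49, 7.31 and 7.62 in EZHi. All EZHi libraries exceeded all vehicle libraries. They gave a log2 fold change of 0.42 (SE 0.11, adjusted p = 0.0284), from an estimated FPKM of 4.99 to 6.70.

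SNHG19, a short host of chromosome 16 (chr16:2154792-2155405) that spans SNORD60, had the largest change among the called snoRNA hosts of high level. Log2 values were 10.47, 10.17, 10.37 and 10.31 in vehicle and 10.49, 10.67, 10.77 and 10.93 in EZHi. Replicate 1 hardly differed, by 0.03, and the groups were separated by that margin only, whereas the other replicates differed by 0.40 to 0.62. The log2 fold change was 0.39 (SE 0.10, adjusted p = 0.0315), from an estimated FPKM of 50.4 to 66.1. TRAF7, which starts 293 bases away on the opposite strand, had a log2 fold change of -0.19 (SE 0.05, adjusted p = 0.0449).

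SNHG7, host of SNORA17A and SNORA17B, was called by a narrow margin. On the log2 scale it was at 9.90, 9.94, 9.69 and 10.05 in vehicle and 10.21, 10.34, 10.07 and 10.17 in EZHi. The lowest EZHi library, replicate 3, was just above the highest vehicle library, replicate 4. The log2 fold change was 0.31 (SE 0.09), and the adjusted p of 0.04996 was at the threshold. Of its exon bases 35.8% are shared, with its snoRNA genes and with DIPK1B on the opposite strand, and the counting ignored strand.

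SNHG12, host of SNORD99, SNORA61, SNORA44 and SNORA16A, was the only host called lower. Its log2 values were 9.08, 8.91, 9.20 and 9.10 in vehicle and 8.77, 8.63, 8.91 and 8.73 in EZHi. The groups overlapped slightly, since EZHi replicate 3 was just above vehicle replicate 2. Equal-numbered libraries differed by -0.37 to -0.28, and the log2 fold change was -0.31 (SE 0.09, adjusted p = 0.0416), from an estimated FPKM of 21.1 to 17.0. SNORD99, which has its own row, had a log2 fold change of 0.01 (adjusted p = 0.980).

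SNHG8, SNHG16 and SNHG26 were not called in the main analysis but were called with the block. SNHG8, host of SNORA24, had log2 values of 10.44, 10.45, 10.58 and 10.43 in vehicle and 10.73, 10.61, 10.71 and 10.63 in EZHi, which did not overlap. Its log2 fold change was 0.19 (SE 0.06), with an adjusted p of 0.0745, and of 0.0128 with the block, and 39.6% of its exon bases are shared, including with PRSS12 on the opposite strand. SNHG16, host of SNORD1A, SNORD1B and SNORD1C, had a log2 fold change of 0.17 (SE 0.07), with an adjusted p of 0.162, and of 0.0169 with the block. The EZHi libraries of SNHG16, from 10.42 to 10.65, overlapped the vehicle libraries, from 10.30 to 10.48. SNHG26, host of SNORD93, had the largest log2 fold change of the class, 0.49 (SE 0.22), and a vehicle group that ran from 6.45 in replicate 3 to 7.62 in replicate 1. Its adjusted p was 0.186, and 0.0209 with the block.

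SNHG29 and GAS5, the snoRNA hosts of highest level, were not called. SNHG29, which carries SNORD49A, SNORD49B and SNORD65, was at an estimated FPKM of 174 in vehicle and 189 in EZHi, with a log2 fold change of 0.12 (SE 0.12, adjusted p = 0.572). GAS5, named for its rise on growth arrest and known to be removed by nonsense-mediated decay, was at 88.7 and 90.9. Its log2 values were 11.22, 11.21, 11.20 and 10.95 in vehicle and 11.19, 11.27, 11.14 and 11.13 in EZHi. The groups overlapped, replicate 4 of vehicle was low, and the log2 fold change was 0.04 (SE 0.08, adjusted p = 0.815), with a 95% confidence interval from -0.13 to 0.21.

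Beyond the calls, most hosts of both classes had a positive difference, 23 of 30 microRNA hosts and 18 of 24 snoRNA hosts. Of all genes 48.0% were positive, and of long noncoding genes 60.6%. The 23 include MIR130AHG, which passed the filter on the mean of the 8 libraries only through EZHi. Its estimated FPKM was 0.0984 in vehicle and 0.110 in EZHi. The median log2 fold change was 0.11 for microRNA hosts and 0.12 for snoRNA hosts, against -0.01 for all genes and 0.04 for long noncoding genes. The mean over all genes was 0.06, opposite in sign to their median. In 5 hosts of each class the EZHi libraries were all above the vehicle libraries, and in 0 they were all below, whereas 10.7% of all genes tested did not overlap with EZHi higher and 7.93% did not overlap with EZHi lower. These counts are descriptions of the classes, without a test of the class.

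Averaged over the microRNA hosts, log2 values were 4.55 ± 0.022 in the vehicle libraries and 4.68 ± 0.037 in the EZHi libraries (SD, n = 4 each). Replicates 1 to 4 differed by 0.15, 0.07, 0.19 and 0.15. Averaged over the snoRNA hosts, they were 8.005 ± 0.057 and 8.13 ± 0.035 (SD, n = 4 each), with differences of 0.07, 0.12, 0.13 and 0.17. In both classes every EZHi library was above every vehicle library. The same held for the mean of all genes tested but not for that of long noncoding genes. The changes of the classes, 0.14 and 0.12, were of like size beside these spreads. The values are on a scale that shrinks changes of low genes, and the microRNA hosts were the class of lower level. The sizes are thus not on an equal footing.

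**Figure D3:**
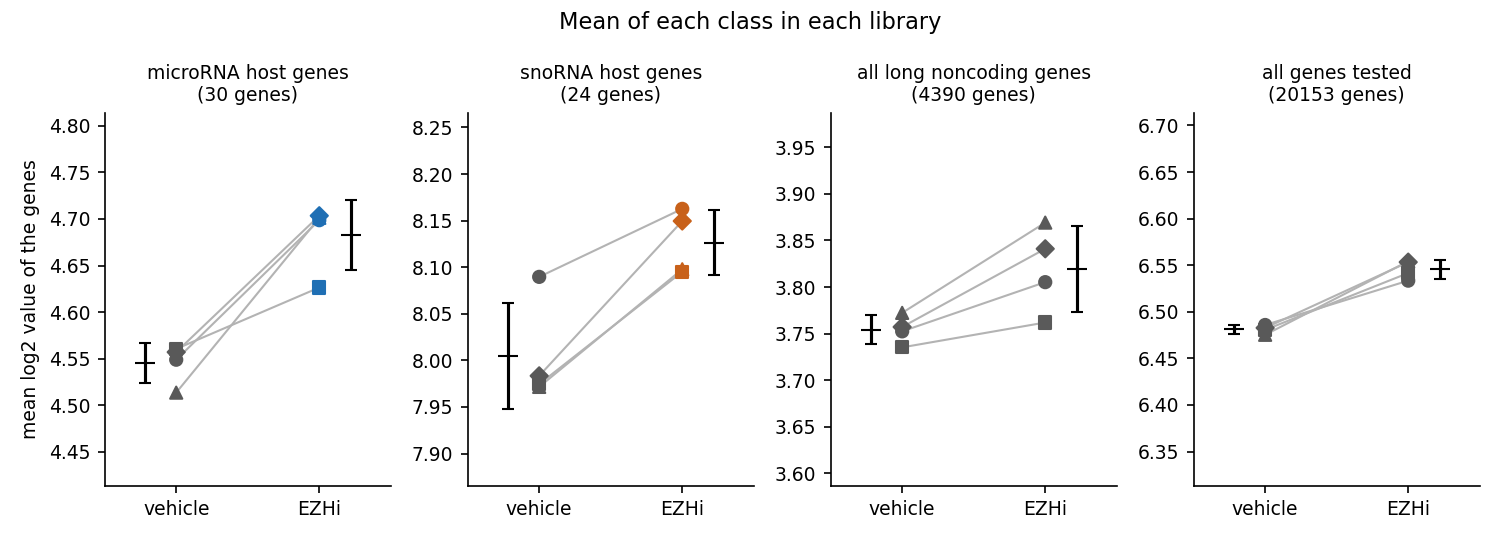
Mean log2 value over the tested genes of a class in each library (vertical axis, each panel spanning the same 0.4 log2 units) for microRNA hosts, snoRNA hosts, all long noncoding genes and all genes tested. Symbols mark the replicate number, lines join equal numbers, and bars show the mean and SD of 4 libraries. Both host classes sit higher in every EZHi library.

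The change of all genes varied with their level. Among genes with an estimated FPKM of 10 or more, the median log2 fold change of all 7809 genes was -0.09 and that of 119 long noncoding genes was 0.02, while that of the 13 snoRNA hosts was 0.13, 11 of them positive. In the same range 27.1% of all genes and 58.0% of the long noncoding genes were positive. Below an FPKM of 1, the 13 microRNA hosts had a median of 0.16, the value of MIR130AHG, and all genes had 0.06. Their means ran the other way, 0.13 for these microRNA hosts and 0.17 for all genes, with 0.07 for long noncoding genes. Between 1 and 10 the 15 microRNA hosts had a median of 0.11 and all genes 0.03, with means of 0.18 and 0.13. The 2 microRNA hosts at 10 or more, MIR4435-2HG and MIR34AHG, had a median of -0.12. The 4 snoRNA hosts below 1 had a median of 0.09, as had the 7 between 1 and 10. The direction for microRNA hosts depended on the scaling. With quantile normalization their median became -0.07, when that of all genes was -0.06, whereas the median of snoRNA hosts was 0.14. Then 1 microRNA host was called, beside 6.93% of all genes higher and 3.89% lower. With values centred on genes of at least 10 FPKM, the medians were 0.21 for both classes and 0.09 for all genes.

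**Figure D4:**
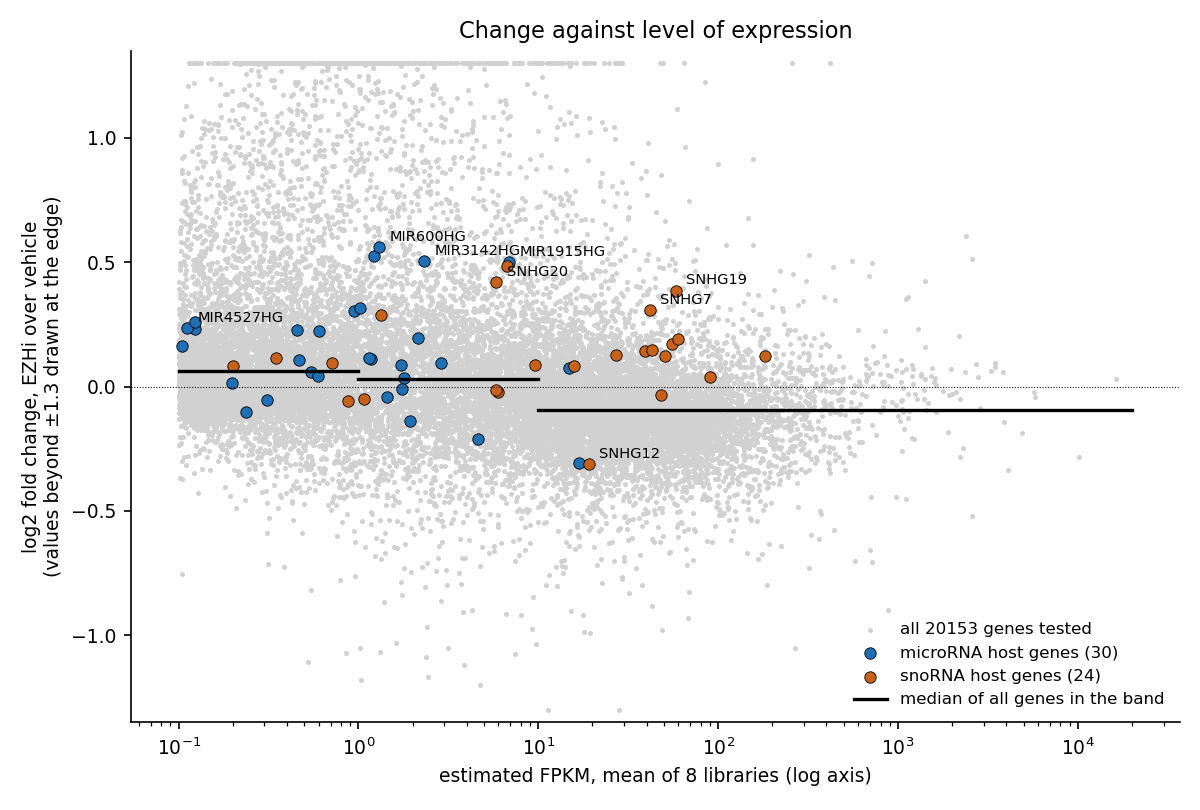
Log2 fold change (EZHi over vehicle) against mean estimated FPKM on a log axis, for all 20153 genes tested (grey), microRNA hosts (blue) and snoRNA hosts (orange). Black lines are the medians of all genes within levels under 1, from 1 to 10, and 10 or more. At the highest levels the black line lies at -0.09 and most orange points lie above it.

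The other genes that hold a small RNA gene on their own strand, most of them protein-coding, were set beside the members. Of 804 such microRNA hosts, 84 rose and 58 fell, 17.7% against 13.1% of all genes, with a median log2 fold change of -0.05. Their largest changes were those of TRIB2 at 3.06 and TNIK at 2.92, both well above any member. Of 230 such snoRNA hosts, 12 rose and 11 fell, 10% against 13.1% of all genes. Their median was -0.05, 84 were positive, and RAMP1 had the largest change at 2.44. The share with a positive difference was thus 36.5% for these other snoRNA hosts, against 18 of 24 for the members. The difference between the shares was not tested. These other microRNA and snoRNA hosts were at a median estimated FPKM of 17.1 and 35.3 in vehicle. At an FPKM of 10 or more, 27.1% of all genes were positive.

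Genes for the small RNAs' processing were taken from lists of known factors. Of 17 tested genes of microRNA biogenesis and silencing, 1 rose and 2 fell. XPO5, the exporter of precursor hairpins, had a log2 fold change of -0.30 (SE 0.07, adjusted p = 0.0221), and DROSHA, the nuclear RNase of the first cut, had -0.28 (SE 0.08, adjusted p = 0.0416). TNRC6C, a scaffold of the silencing complex, had 0.46 (SE 0.12, adjusted p = 0.0293). LIN28B, which blocks let-7 maturation, had -0.23 (SE 0.08, adjusted p = 0.0945) and was called with the block. The 3 called genes thus differed in direction, and 17.6% of the list was called against 13.1% of all genes. Its median was -0.05, and that of all genes at an FPKM of 10 or more was -0.09.

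Of 15 genes for snoRNP proteins and their assembly, limma called 0, with 0 at an unadjusted p under 0.05. Of all 20153 genes tested, limma called 13.1%, with 5367 at an unadjusted p under 0.05. The snoRNP genes had a median log2 fold change of -0.09, and 1 of 15 was positive. This was NOP56, a C/D box core protein, at 0.14 (SE 0.13, adjusted p = 0.553). The largest decrease was that of the assembly factor NUFIP1, with -0.19 (SE 0.11, adjusted p = 0.330). RUVBL1, an assembly ATPase, was called lower with the block. Of 10 factors of nonsense-mediated decay, limma called 0, beside 13.1% of all genes. At an unadjusted p under 0.05 limma found 1, beside 5367 of all 20153 genes. The median of these factors was -0.09, and that of all genes at an FPKM of 10 or more was also -0.09.

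Sequences at the start sites were examined because several snoRNA hosts belong to the genes with a 5′ terminal oligopyrimidine tract. The RefSeq promoter table (GRCh38.p14, 250 bases before to 50 after each start) held 58 of the 68 members. A run of at least 5 bases that began with C, held only C or T on the gene's strand and started within 5 bases of the RefSeq start was found in 9 of 21 snoRNA hosts and in 16 of 37 microRNA hosts, and in 21.1% of 27305 promoters. Among tested genes alone, the run was found in 9 of 21 snoRNA hosts, 11 of 26 microRNA hosts and 22.5% of all promoters. Overlaps with other motifs were not removed. The 40 bases around the start are shown for 6 of the 7 snoRNA hosts called with the block, from 20 before to 20 after, with the run in capitals.
SNHG19, chr16:2155339-2155378, minus strand: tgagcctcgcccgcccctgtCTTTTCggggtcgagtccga
SNHG7, chr9:136728165-136728204, minus strand: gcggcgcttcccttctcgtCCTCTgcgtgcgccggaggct
SNHG12, chr1:28581854-28581893, minus strand: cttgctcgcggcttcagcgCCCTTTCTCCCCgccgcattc
SNHG8, chr4:118278742-118278781, plus strand: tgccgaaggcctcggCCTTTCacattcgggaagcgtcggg
SNHG16, chr17:76557744-76557783, plus strand: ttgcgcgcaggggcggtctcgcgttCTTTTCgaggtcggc
SNHG20, chr17:77088623-77088662, plus strand: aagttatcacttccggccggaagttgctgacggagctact
SNHG20 holds no such run, and neither does SNHG26, which is not shown. The RefSeq start can differ from the start of the GENCODE span. For SNHG20 the window is at 77088623-77088662, and its GENCODE span starts at 77086716. For MIR3142HG the window is at 160468231-160468270, and its span starts at 160438594. Other starts of the hosts were not examined. The run was present in SNHG12, which fell, as well as in SNHG19 and SNHG7, which rose. Among the microRNA hosts called with or without the block, it was present in MIR3142HG and MIR17HG and not in MIR1915HG, MIR600HG and MIR4435-2HG. Hosts that rose thus included starts with and without the run.

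CpG content of the promoters, taken at the RefSeq starts, was compared as a description. The observed over expected CpG ratio was 0.6 or more in 18 of 21 snoRNA host promoters and in 18 of 37 microRNA host promoters, against 49.0% of all promoters. Among tested genes alone, it was so in 18 of 21 snoRNA hosts, 14 of 26 microRNA hosts and 77.7% of all promoters. Among called hosts it was 1.03 in SNHG12, 1.02 in SNHG7, 0.964 in SNHG19, 0.6999 in MIR1915HG and 0.566 in SNHG20, and it was 0.378 in MIR3142HG and 0.128 in MIR600HG. The hosts that rose therefore included promoters of high and of low CpG content.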

How the data were processed

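mRNA libraries of HepG2 cells (4 vehicle, 4 EZHi) were analysed. Deposited values were log2 values: per the study's methods and the labels, the authors mapped reads to hg38 with HISAT2 2.2.1, counted them over exons with HTSeq 0.9.1 without strand, removed genes with fewer than 10 reads, and applied the regularized log of DESeq2 1.40.2 and a correction for mean transcript length. Tool versions are those of the submitters' processing notes. The regularized log shrinks changes of low genes. Depth is unknown, so no counting interval is given. Estimated FPKM is 2 to the power of the value divided by 25.6, the mean sum of normalized reads per library in units of 1e6. limma 3.58.1 (R 4.3.3; trended prior, group only, two-sided, Benjamini-Hochberg over all genes tested) gave every p, after a check on simulated data. Residuals of equal replicate numbers correlated at 0.216 to 0.634, and all others at most at 0.199. Replicate 4 had the 0.216, so pairing by the title numbers is least clear there. The main fit leaves the pairing out, and the fit with the replicate block uses it. Named genes were the called members, the 5 largest changes and 5 highest vehicle levels per class, and GAS5. Members, lists and tests were chosen with earlier results of these data known.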

Additional observations from a re-analysis of the deposited data

Results flagged for a closer look

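In 4 of 38 groups of 4 libraries of named hosts, 1 library stood apart from the other 3, its gap to the nearest taking most of the group's range (Dixon's test at the 95% level), and chance gives about 1.9 such groups. For GAS5, vehicle replicate 4 was at 10.95 and the others at 11.20 to 11.22 (gap over range 0.896). For MIR17HG, EZHi replicate 1 was at 5.46 and the others at 5.06 to 5.11 (0.889). For MIR1915HG, EZHi replicate 2 was at 7.46 and the others at 7.75 to 7.78 (0.906). For SNHG8, vehicle replicate 3 was at 10.58 and the others at 10.43 to 10.45 (0.897). Several libraries are involved, and no library was set apart in more than 1 host.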

How the results depend on the processing

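For 19 named hosts, 303 values under alternatives comprised 235 with the direction and call of the main analysis, 53 that lost the call, 12 that gained it and 3 of opposite sign: GAS5 at -0.028 without vehicle replicate 4 (its range over such omissions reached 0.063), and MIR924HG at -0.037 with quantile normalization and at -0.046 without vehicle replicate 3 (range up to 0.171). None of the 3 was called. The replicate block moved the snoRNA hosts called higher to 6 and the microRNA hosts called lower to 1, and changed no other call than those named above. With the block, 14.9% of all genes were called higher and 15.1% lower. Quantile normalization gave 1 microRNA host called higher, a microRNA median of -0.066 and 0 snoRNA hosts lower. Of all genes, 6.93% were then higher and 3.89% lower. Centring on genes of at least 10 FPKM gave 5 snoRNA hosts higher and 0 lower, beside 12.4% and 1.62% of all genes. The medians were 0.21 for microRNA hosts and 0.21 for snoRNA hosts. Pseudocounts of 0.5 and 1 lowered the microRNA median to 0.050 and 0.031. Without a filter on low values 0 snoRNA hosts were lower, beside 3.15% of all genes. Leaving out 1 library at a time gave 0 to 4 microRNA hosts higher, 0 to 2 snoRNA hosts higher and 0 to 1 lower. Of all genes, 7.06% to 8.49% were then higher and 1.93% to 4.27% lower. At an unadjusted p under 0.05, limma gave 10 to 13 hosts higher, beside 12.9% to 14.6% of all genes. The cause of these differences was not tested. Depth is unknown, so what it limits cannot be given.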
